A study of Homo sapiens with 6 samples.

Results

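Nonsense-mediated decay is the pathway by which a cell destroys messenger RNA whose translation stops too early, and it also trims the level of many normal transcripts. Its 9 core factors examined here were UPF1, UPF2, UPF3A, UPF3B, SMG1, SMG5, SMG6, SMG8 and SMG9. They were taken by gene symbol from a table of 54259 symbols, and the rule itself used no measured value, though earlier results of these data were known when it was written. All 9 were found in the table under these symbols and all 9 passed the filter on low counts, which left 15277 genes for testing.

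RNA-Sequence was performed on MDA-MB-231, an established human breast cancer cell line, in 3 libraries of cells with a short hairpin RNA against brachyury (MDA-MB-231 shBry) and in 3 libraries of cells with a control hairpin (MDA-MB-231 shNC). Both groups therefore carry a hairpin construct, and the sources used here do not say whether each is a single clone, how long the hairpin was expressed or whether the 3 libraries came from separate cultures. If they did not, the p-values measure only technical spread. The comparison asks which transcripts differ between brachyury-knockdown and control cells, although the series as a whole is about non-small cell lung cancer.

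The libraries held between 19319411 and 22985371 counts, so that 3 counts, the limit a count of 0 allows, were worth 0.131 to 0.155 CPM (counts scaled to a common library size), for counting error only. Brachyury itself, listed under the symbol T, had 0 counts in each of the 6 libraries, so the knockdown could not be seen in these counts. The mesenchymal markers of the line (VIM, CD44, EGFR, AXL and MSN) were all present. Of ESR1, PGR, CDH1, EPCAM and KRT20, which the line should express weakly or not at all, EPCAM alone had a mean over 1 CPM (2.92). The first principal component separated the groups with 75.7% of the variance. On the second, with 9.4%, the second shBry library (-27.49) and the third shNC library (-17.46) lay at the same end. The first library of each group lay toward the other end (22.02 in shBry and 12.73 in shNC). Those at the negative end are called the libraries that stood apart below. The name is only a label, since the first shBry library lay farther out on this component than the third shNC library. UPF2 and SMG1, which were highest of their groups in these libraries, are also given without both of them. In bulk RNA, a transcript lost from some cells and a transcript reduced in every cell cannot be told apart.

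In the pathway, UPF1 is an RNA helicase that gathers on the messenger RNA when translation ends far from the normal place. UPF2 and either UPF3A or UPF3B join UPF1 to the exon junction complex, a protein mark left where introns were removed. The kinase SMG1, held in check by SMG8 and SMG9, then phosphorylates UPF1, and phosphorylated UPF1 recruits SMG5 and the endonuclease SMG6, which start the degradation.

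Some of these genes share sequence with other genes, and reads from such stretches cannot be assigned to a single gene by sequence alone. SMG1 has 7 pseudogenes, SMG1P1 to SMG1P7, which are copies of part of it. The following 50 bases, from base 1297 to base 1346 of the SMG1 coding sequence, occur without a mismatch in a transcript of each of the 7 pseudogenes (GENCODE 29), so no base is set in capitals.
SMG1, coding bases 1297 to 1346: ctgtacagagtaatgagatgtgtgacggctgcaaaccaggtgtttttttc
In all, 14.4% of the 50-base stretches in SMG1 transcripts occur in transcripts of other genes, against 17.1% for UPF3A (mainly the pseudogenes UPF3AP2 and UPF3AP1) and 9.83% for SMG8 (the overlapping transcript AC099850.2). The share was at most 0.132% for each of the other 6 genes.

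UPF3A and UPF3B are paralogs, and the 60-base coding stretch in which they are most alike shows how far their reads can be separated. Capitals mark the 9 positions at which the 2 sequences differ, an identity of 85%.
UPF3A, coding bases 682 to 741: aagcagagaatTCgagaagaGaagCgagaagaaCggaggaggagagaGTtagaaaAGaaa
UPF3B, coding bases 619 to 678: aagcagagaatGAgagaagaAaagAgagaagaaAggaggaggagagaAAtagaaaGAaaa
No 50-base stretch of a UPF3B transcript occurred in a transcript of another gene.

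The promoters of 3 genes are shown because they share a short motif. They belong to UPF3B, which had the largest change in the main analysis, to its paralog, and to SMG5, the most abundant of the 9. RefSeq gave 15 promoter windows of 300 bases for 8 of the 9 genes, with no entry for SMG8. Capitals mark TCGCGAG or its reverse complement CTCGCGA in the 250 bases before a transcript start (GRCh38.p14).
UPF3B, chrX:119852964-119853213, minus strand: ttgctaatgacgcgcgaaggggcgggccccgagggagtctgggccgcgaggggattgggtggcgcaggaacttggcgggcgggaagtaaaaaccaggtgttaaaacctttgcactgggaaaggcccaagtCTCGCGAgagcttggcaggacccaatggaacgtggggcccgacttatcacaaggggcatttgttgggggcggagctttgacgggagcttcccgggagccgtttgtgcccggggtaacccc
UPF3A, chr13:114281351-114281600, plus strand: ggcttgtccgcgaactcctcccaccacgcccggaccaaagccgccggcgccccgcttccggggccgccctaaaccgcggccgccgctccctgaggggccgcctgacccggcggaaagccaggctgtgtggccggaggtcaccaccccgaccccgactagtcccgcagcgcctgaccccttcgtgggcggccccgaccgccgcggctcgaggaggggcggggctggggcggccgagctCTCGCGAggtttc
SMG5, chr1:156282826-156283075, minus strand: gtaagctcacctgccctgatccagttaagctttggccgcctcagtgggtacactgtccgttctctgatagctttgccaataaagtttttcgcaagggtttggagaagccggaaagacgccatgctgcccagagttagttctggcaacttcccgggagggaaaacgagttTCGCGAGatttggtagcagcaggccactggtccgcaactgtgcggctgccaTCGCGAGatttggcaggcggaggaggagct
The motif occurred in 4 of the 15 windows, for these 3 genes, and in 2.35% of 35116 promoter windows on either strand. It was chosen after the windows had been looked at, so its frequency is a description without a test. The 3 genes differed in direction, as UPF3A and UPF3B were higher and SMG5 lower in shBry. AGGTGTGA, a core of T-box factor sites, was found in 0.98% of all windows and TGATGCAA, a core of ATF4-type sites, in 0.866%, but neither was found in the 15 windows. CACGTG, the E-box, was present in windows of UPF2 and SMG6 and in 7.26% of all windows.

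UPF3B was the single decay factor that met both criteria of differential expression, a Benjamini-Hochberg adjusted p below 0.05 (edgeR's quasi-likelihood test over all genes) and a fold change above 1.5, which is 0.58 on the log2 scale. Across all 15277 tested genes 32.4% met them, 17.1% higher and 15.2% lower in shBry, against 1 of 9 decay factors higher and 0 lower. By adjusted p alone, 7 of the 9 differed, 5 higher (UPF1, UPF3A, UPF3B, SMG1 and SMG9) and 2 lower (UPF2 and SMG5). The background for that criterion was 53.3% of tested genes, 28.0% higher and 25.3% lower. The values of the groups did not overlap for 8 of the 9, all but SMG1, where the background was 59.5%. Their log2 fold changes, always shBry relative to shNC, lay between -0.43 and 0.72, with a median of 0.26 and a median size of 0.30, beside a median of 0.03 and a median size of 0.42 over all tested genes.

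**Figure D1:**
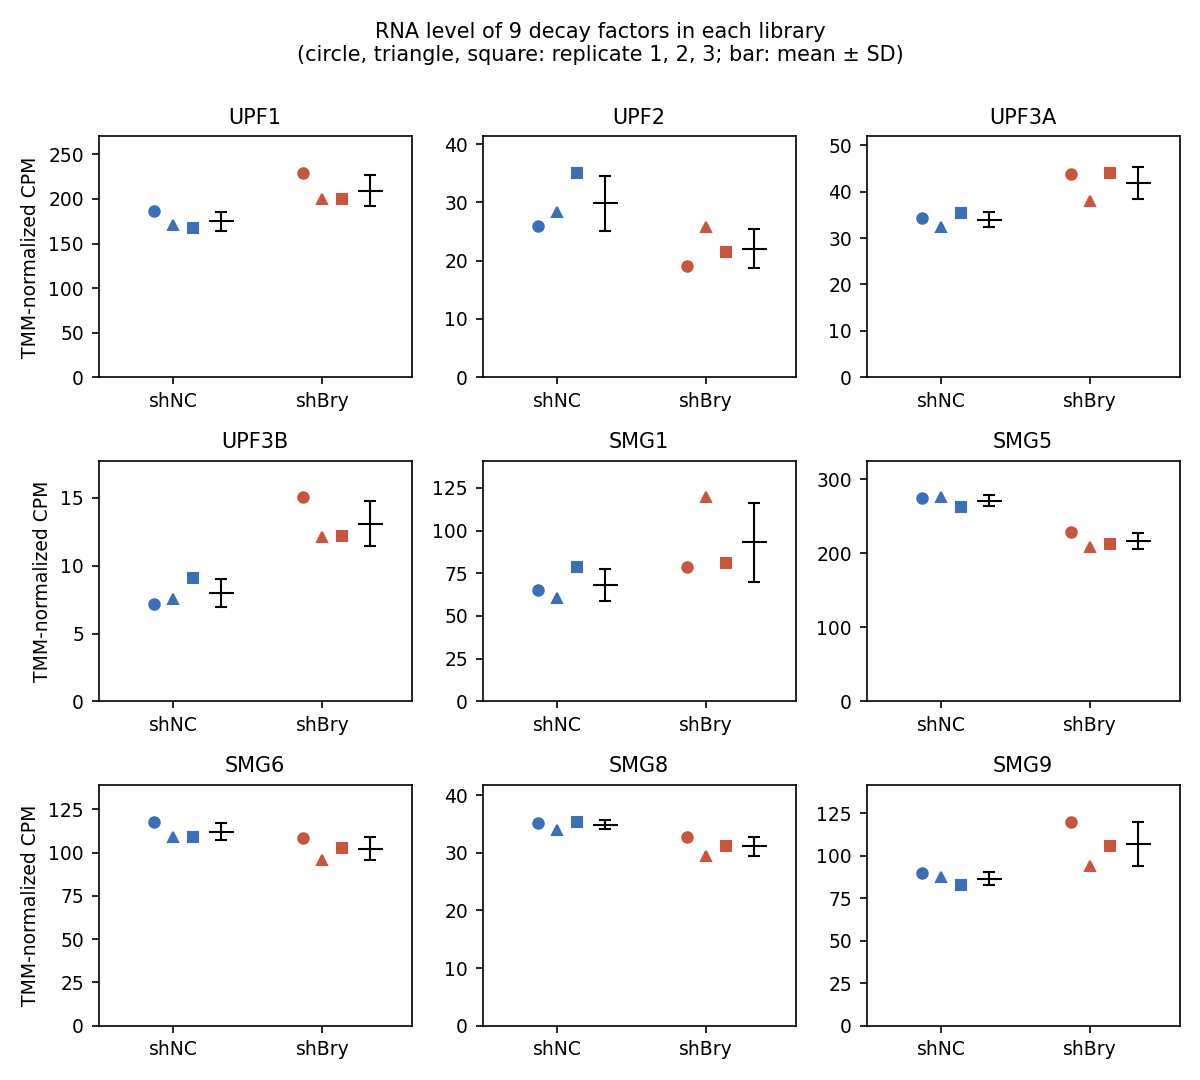
TMM-normalized CPM (linear axes from 0) of each decay factor in the 3 shNC and 3 shBry libraries, with the mean and SD beside each group. UPF3B lies between 7.19 and 9.12 CPM in shNC and between 12.1 and 15.0 CPM in shBry, while the SMG1 groups overlap, with the second shBry library highest at 119 CPM.

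UPF1 was modestly higher in shBry cells. Its level was 186, 171 and 167 CPM (normalized with edgeR's TMM method) in the shNC libraries and 229, 199.9 and 199.5 CPM in the shBry libraries. Every shBry library was above every shNC library, the nearest being replicate 3 of shBry and replicate 1 of shNC. Means were 175 ± 10.2 and 209 ± 16.9 CPM (SD, n = 3), with a log2 fold change of 0.26 (SE 0.08, adjusted p = 0.018), which is below the fold limit. Without the first shBry library it was 0.19 (adjusted p = 0.096), without the second shNC library 0.22 (0.094) and without the third shNC library 0.20 (0.074). UPF1 is on the plus strand of chromosome 19, from 18831938 to 18868236 (GRCh38, as for all genes here), with 24 exons and a GC content of 60.5% in its representative transcript.

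UPF2, the adaptor between UPF1 and the UPF3 proteins, moved the other way. It had 26.0, 28.4 and 35.01 CPM in shNC and 19, 25.7 and 21.5 CPM in shBry. The groups were separated by a narrow gap, between the second shBry library and the first shNC library. Its means were 29.8 ± 4.65 and 22.1 ± 3.39 CPM (SD, n = 3) and its log2 fold change was -0.43 (SE 0.14, adjusted p = 0.018), again below the limit. The adjusted p was 0.061 without the first shBry library, 0.061 without the third shBry library and 0.079 without the third shNC library. The libraries that stood apart were the highest of their groups for UPF2, and without both of them the log2 fold change was -0.46 (adjusted p = 0.0025). Leaving out the highest library of each group narrows the spread, which by itself can lower the p-value. UPF2 lies on the minus strand of chromosome 10, from 11920022 to 12043170.

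The ratio of UPF2 to UPF1 within a library does not depend on how libraries are scaled. It can still carry deviations of a library that differ between these genes. On the log2 scale of counts it was -2.84, -2.59 and -2.25 in shNC and -3.59, -2.96 and -3.22 in shBry. No shBry library reached the lowest shNC library. The libraries that stood apart had the highest ratio of their groups, and in them UPF2 was high and UPF1 low for the group. The mean went from -2.56 ± 0.29 to -3.25 ± 0.32 (SD, n = 3), a difference of -0.69. In a two-sided exact permutation test p was 0.1, the smallest p that 3 against 3 libraries can give. The difference was -0.84 without the second shBry library and -0.54 without the third shNC library. It was not computed without both of them or with the GC content and length trend removed.

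UPF3B, the X-linked adaptor that binds both UPF2 and the exon junction complex, had the largest change among the 9 in the main analysis. It was counted 157, 160 and 182 times in shNC and 279, 287 and 274 times in shBry, or 7.19, 7.56 and 9.12 CPM against 15.0, 12.1 and 12.1 CPM. The lowest shBry library was clear of the highest shNC library. UPF3B rose from 7.96 ± 1.02 to 13.1 ± 1.67 CPM (SD, n = 3), which is 1.64-fold, with a log2 fold change of 0.72 (SE 0.15, adjusted p = 0.0013). With each library left out in turn it was still called, at 0.61 to 0.80. With each library's trend on GC content and transcript length removed, its log2 fold change was 0.57 (adjusted p = 0.0021), just under the fold limit. UPF2 then ranked first by a narrow margin, at -0.58 (adjusted p = 3.4e-05). UPF3B spans 119805311 to 119852998 on the minus strand of the X chromosome. Its representative transcript has 11 exons and a GC content of 41.8%.

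UPF3A, the paralog of UPF3B that also binds UPF2, was higher in shBry by a smaller amount. Levels were 34.3, 32.3 and 35.4 CPM in shNC and 43.8, 37.9 and 44.0 CPM in shBry. The second shBry library was the lowest of its group and came nearest to the shNC libraries. Mean levels of 34.0 ± 1.56 and 41.9 ± 3.45 CPM (SD, n = 3) gave a log2 fold change of 0.30 (SE 0.10, adjusted p = 0.020), below the fold limit. Leaving out single libraries raised the adjusted p to 0.066 (replicate 1 of shBry), 0.091 (replicate 3 of shBry), 0.055 (replicate 1 of shNC) and 0.11 (replicate 2 of shNC), with a log2 fold change of at least 0.25. Its pseudogenes UPF3AP1, UPF3AP2 and UPF3AP3 had at most 5 counts in a library. UPF3A is on the plus strand of chromosome 13, from 114281584 to 114305817.

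UPF3A counts exceeded UPF3B counts in each library, by a smaller factor in shBry than in shNC. The log2 ratio of UPF3A to UPF3B counts was 2.25, 2.09 and 1.95 in shNC and 1.54, 1.65 and 1.85 in shBry. The groups did not overlap, with the third library of each nearest to the other group. The mean ratio was 2.10 ± 0.15 against 1.68 ± 0.16 (SD, n = 3), a difference of -0.42 (two-sided exact permutation test, p = 0.1, again the smallest possible). This ratio was not computed with the GC content and length trend removed. In that fit the log2 fold change was 0.28 for UPF3A and 0.57 for UPF3B.

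**Figure D2:**
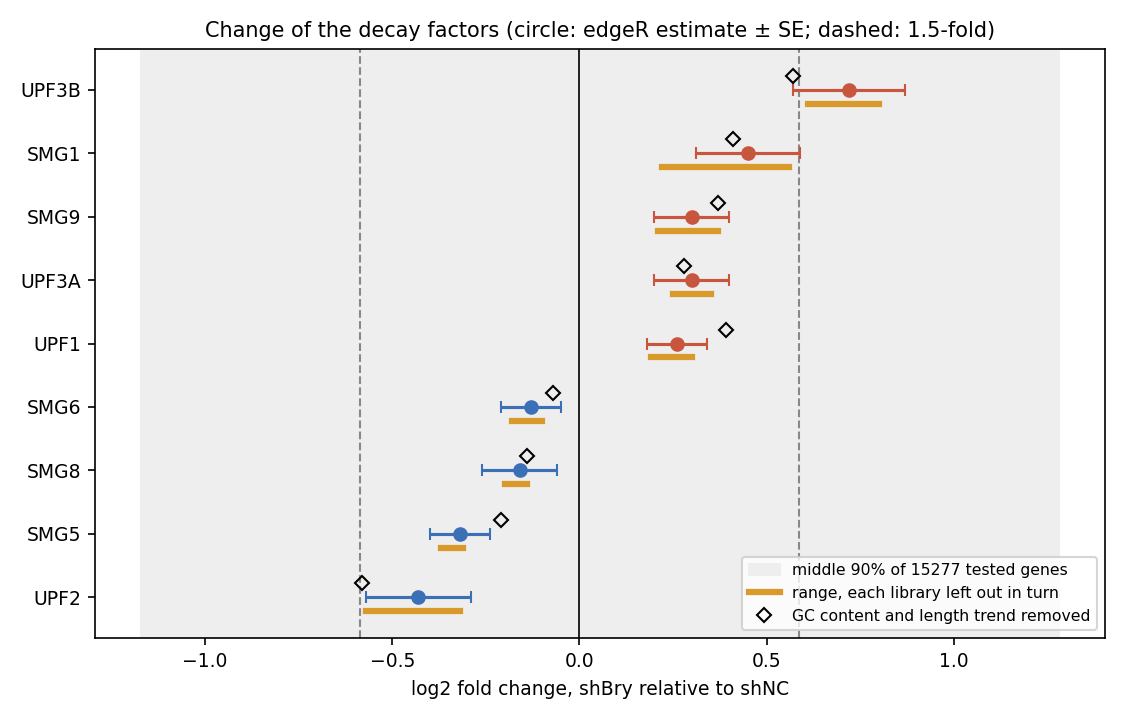
Log2 fold changes of the 9 decay factors, shBry relative to shNC, from edgeR (circle with SE), with the range over fits that each leave out 1 library and the value with the GC content and length trend removed. Dashed lines mark 1.5-fold and the grey band the middle 90% of all tested genes (-1.17 to 1.28). UPF3B is the single gene whose circle lies beyond a dashed line, and its diamond (0.57) falls just inside.

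SMG1, the kinase that phosphorylates UPF1, had the most uneven shBry replicates. It was listed at 65.2, 60.7 and 78.7 CPM in shNC and at 78.4, 119 and 81.2 CPM in shBry. The first shBry library fell just below the third shNC library, and the second shBry library was far above all others. The means were 68.2 ± 9.36 and 93.0 ± 22.9 CPM (SD, n = 3), with a log2 fold change of 0.45 (SE 0.14, adjusted p = 0.017). Without the second shBry library it was 0.22 (adjusted p = 0.089). The adjusted p also passed 0.05 without the first shNC library (0.057) and without the second (0.095). Without both libraries that stood apart, the log2 fold change was 0.31 (adjusted p = 0.0045). These were the highest of their groups for SMG1 and were chosen after seeing the data. Leaving them out narrows the spread, which by itself can lower the p-value.

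The second shBry library and the third shNC library were high for a whole class of transcripts. Genes with a GC content under 40% (1415 genes) had a median deviation of 0.30 on the log2 scale in the second shBry library and of 0.33 in the third shNC library, against the other libraries of the same group. For genes with transcripts over 8000 bases (785 genes) it was 0.22 and 0.14. SMG1, with a transcript of 16115 bases, deviated by 0.58 and 0.32 in these libraries, and UPF2, with a GC content of 40.3%, by 0.35 and 0.36. UPF1 deviated the other way, by -0.10 and -0.09. UPF3B, with a GC content of 41.8%, was low in the second shBry library (-0.16) and high in the third shNC library (0.31). The genes with a GC content under 40% were low in the first library of each group, at -0.23 in shBry and -0.25 in shNC. With the GC content and length trend removed, the log2 fold change was 0.41 for SMG1 (adjusted p = 0.00077), -0.58 for UPF2 (3.4e-05) and 0.39 for UPF1 (6.9e-05). The part of RNA quality in these deviations was not tested.

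**Figure D3:**
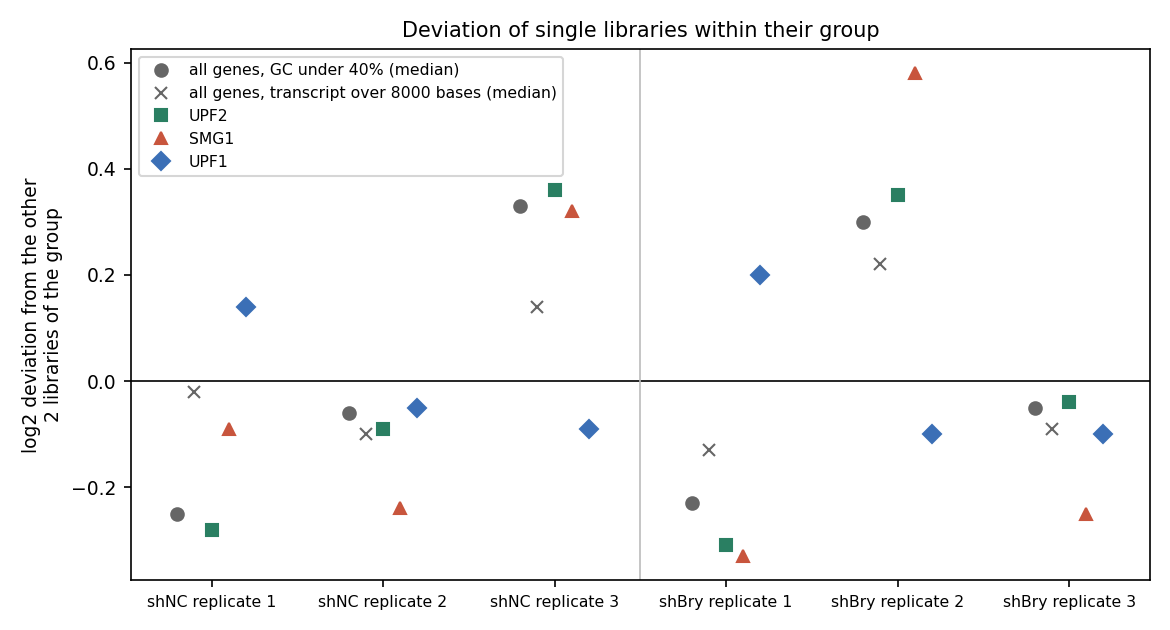
Log2 deviation of each library from the other 2 libraries of its group, for SMG1, UPF2 and UPF1 and as the median over all genes with a GC content under 40% or transcripts over 8000 bases. SMG1 and UPF2 lie above 0 in the third shNC and second shBry libraries, as do both gene classes, while UPF1 lies below 0.

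The SMG1 pseudogenes were also counted. SMG1P1, the most abundant, had 238, 251 and 258 counts in shNC and 293, 478 and 386 counts in shBry. Like SMG1, it was highest in the second shBry library, but its groups did not overlap (log2 fold change 0.57, SE 0.14, adjusted p = 0.0027). SMG1P2 and SMG1P5 were called higher, with log2 fold changes of 0.64 and 0.96 (adjusted p = 0.0082 and 0.011), and SMG1P3 had 0.36 (adjusted p = 0.25). SMG1P4, SMG1P6 and SMG1P7 had at most 14 counts in a library and were not tested. Together the pseudogenes had 26.8% to 39.0% as many counts as SMG1. Summing all of them with SMG1 gave a log2 fold change of 0.48 (SE 0.12, adjusted p = 0.0047). The sum was also highest in the second shBry library (3593 counts, beside 2025 and 2531 in the other shBry libraries). It was not fitted with a library left out. How the counting treated reads that match several places is not given in the sources used here, so the SMG1 value is uncertain in this respect. SMG1 is on the minus strand of chromosome 16, from 18804853 to 18926454, with 63 exons.

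SMG9, a partner that holds SMG1 with SMG8, was higher in shBry. Its level was 89.9, 87.3 and 82.5 CPM in shNC and 120.2, 94.2 and 106 CPM in shBry. The shBry libraries were widely spread, but the lowest of them was above all shNC libraries. Mean levels were 86.6 ± 3.73 and 107 ± 13.02 CPM (SD, n = 3), with a log2 fold change of 0.30 (SE 0.10, adjusted p = 0.016), below the fold limit. It was 0.21 without the first shBry library (adjusted p = 0.088), 0.29 without the second shNC library (0.054) and 0.24 without the third shNC library (0.059). SMG9 is on the minus strand of chromosome 19, from 43727992 to 43754990.

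SMG8, which inhibits the SMG1 kinase together with SMG9, did not pass the test. Its 35.1, 34.0 and 35.4 CPM in shNC stood beside 32.7, 29.5 and 31.1 CPM in shBry. The groups did not overlap, although the difference was slight. Means of 34.8 ± 0.754 and 31.1 ± 1.59 CPM (SD, n = 3) gave a log2 fold change of -0.16 (SE 0.10, adjusted p = 0.17). SMG8 lies on the plus strand of chromosome 17, from 59209400 to 59215247, and 11.2% of its exon bases overlap AC099850.2 on the same strand. By adjusted p, the 3 members of the kinase complex thus had 2 higher levels, for SMG1 and SMG9. Both were below the fold limit, and both lost significance when certain single libraries were left out. For SMG8 the difference did not pass the test.

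SMG5, which binds phosphorylated UPF1 and brings in the decay machinery, was lower in shBry. It had 274, 275 and 262 CPM in shNC and 229, 209 and 212 CPM in shBry. All shBry libraries were well below all shNC libraries. SMG5 had means of 271 ± 7.53 and 217 ± 10.7 CPM (SD, n = 3), with a log2 fold change of -0.32 (SE 0.08, adjusted p = 0.0026), below the fold limit. The adjusted p remained under 0.05 with each of the 6 libraries left out, at log2 fold changes of -0.37 to -0.31, and was 0.0024 at -0.21 with the GC content and length trend removed. SMG5 is on the minus strand of chromosome 1, from 156249224 to 156282825.

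SMG6, the endonuclease that cuts the target near the stop codon, did not pass the test. Its levels were 118, 109 and 109 CPM in shNC and 109, 95.6 and 103 CPM in shBry. The highest shBry library was close to the lowest shNC library. Means were 112 ± 5.06 and 102 ± 6.53 CPM (SD, n = 3), with a log2 fold change of -0.13 (SE 0.08, adjusted p = 0.19). SMG6 is on the minus strand of chromosome 17, from 2059839 to 2303771, and HIC1 on the opposite strand is the main gene within the 25.4% of its exon bases that overlap other genes. HIC1 had 164 to 321 counts in a library and a log2 fold change of 0.39 (adjusted p = 0.040). Whether reads were counted by strand is not given in the sources used here, so counts of SMG6 and HIC1 in the overlap cannot be told apart.

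Levels between genes were compared per length, as CPM per kb of annotated exon. In shNC, SMG5 was highest at 51.0, followed by UPF1 (20.3), SMG9 (10.9), SMG6 (10.6), SMG8 (9.29), UPF3A (5.89), UPF2 (5.05), SMG1 (2.62) and UPF3B (2.58). The neighbours SMG9 and SMG6, UPF3A and UPF2, and SMG1 and UPF3B overlapped in their library values and did not differ beyond their spread. In shBry the order was SMG5 (40.8), UPF1 (24.4), SMG9 (13.5), SMG6 (9.70), SMG8 (8.29), UPF3A (7.26), UPF3B (4.25), UPF2 (3.73) and SMG1 (3.58). Neighbours among the last 3 of these genes overlapped, and their order depended on the length used. With the longest transcript as the length, SMG1 (5.77) stood above UPF3B (5.50) and UPF2 (3.96) in shBry, and UPF3A (17.3) came before SMG6 (17.2) and SMG8 (8.95). In shNC, SMG9 and SMG6 then changed places, as did SMG8 and UPF3A, and UPF3B remained last.

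**Figure D4:**
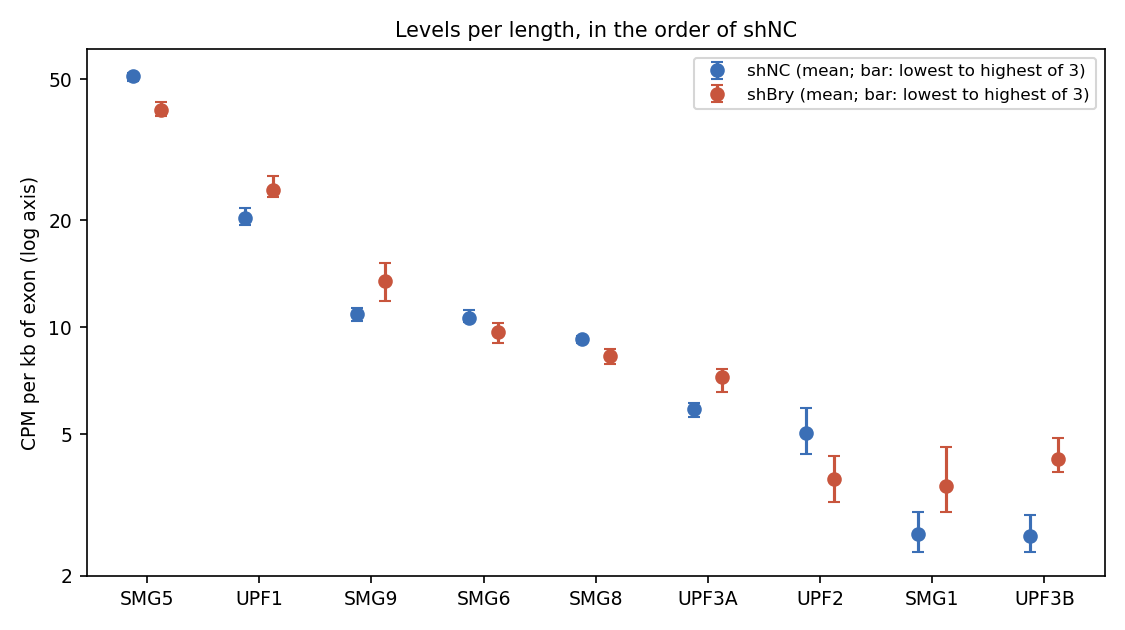
Mean level per kb of exon (log axis) of the 9 decay factors in shNC and shBry, in the order of shNC, with bars from the lowest to the highest of 3 libraries. SMG5 and UPF1 lead in both groups, and UPF3B rises from 2.58 to 4.25 CPM per kb.

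Transcripts of several decay factors are themselves reported targets of the pathway in other cells, by way of upstream reading frames or long 3′ untranslated regions, so these features were read from GENCODE 29. UPF2 had 13 ATG triplets in its 5′ untranslated region, percentile 98 of 12371 tested coding genes, of which 53.4% have any. SMG1, SMG5 and SMG9 had 1 each, and UPF1, UPF3A, UPF3B, SMG6 and SMG8 had 0. The 3′ untranslated regions were longest in SMG1 (4716 bases) and SMG9 (3604 bases) and shortest in SMG8 (237 bases), beside a median of 1090 bases. No representative transcript of the 9 had an exon junction more than 50 bases after its stop codon. GENCODE 29 lists 1 further transcript each of SMG1, SMG8 and SMG9 as a target of the pathway, and 42.9% of the tested coding genes have any such transcript. Of the factors with an adjusted p below 0.05, those higher in shBry were SMG1, SMG9, UPF1 (1719 bases), UPF3A (900 bases) and UPF3B (856 bases). Those lower were SMG5 (1363 bases) and UPF2 (1276 bases), which has the most upstream ATG triplets. The higher ones thus lay on both sides of the median length. The part of these features in the differences was not tested.

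Other proteins that help the pathway were examined as a list of 8 cofactors, all tested. Of these, 2 were called higher and 1 lower, 37.5% beside the 32.4% of all genes, and the median log2 fold change was 0.19. GNL2, a nucleolar GTPase, had 35.3, 34.1 and 41.5 CPM in shNC and 67.0, 58.6 and 58.7 CPM in shBry (log2 fold change 0.73, SE 0.10, adjusted p = 3.9e-05). PNRC2, which links UPF1 to decapping, rose with a log2 fold change of 0.59 (adjusted p = 0.00056), or 0.38 with the GC content and length trend removed, where its call was lost. PNRC2 also fell under the fold limit without the second shBry library (0.52), the third shBry library (0.57), the first shNC library (0.51) or the second shNC library (0.58), without TMM (0.58) and with DESeq2 (0.57). FMR1, an RNA-binding protein that binds UPF1, fell by 0.61 on the log2 scale (adjusted p = 0.013), although its groups overlapped. Its call was lost without the first shBry library (-0.50), the third shBry library (-0.50) or the third shNC library (-0.51). The helicase DHX34 had a log2 fold change of 0.56 (adjusted p = 0.00012), which was below the fold limit, and was named after its value was seen.

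Transcripts reported as targets of the pathway in other cells had the largest share of called genes among the 9 other lists, 70.6%. Of 34 tested, 21 were called higher and 3 lower, beside 17.1% and 15.2% of all genes, and the median of the 34 log2 fold changes was 0.85. These genes were picked with earlier results of these data known, and they include genes of the amino acid and ER stress response such as ATF4 (0.62), DDIT3 (1.93) and ASNS (2.66), which were named after their values were seen. The largest rises were those of GADD45A, a growth arrest gene (3.82), UPP1, uridine phosphorylase (3.50), and ZFAS1, a host of small nucleolar RNAs (3.18). UPP1 had 42.8 ± 1.59 CPM in shNC and 485 ± 56.7 CPM in shBry (SD, n = 3; adjusted p = 4.6e-12). The largest falls among called genes were those of BAG1 (-0.65), a chaperone regulator, and of TRA2B (-0.63) and SRSF2 (-0.59), splicing factors that have an isoform with a premature stop (adjusted p = 0.00012, 2e-05 and 3.9e-05). SRSF2 was under the fold limit without the second shBry library (-0.54). The counts sum all isoforms of a gene, and the level of a degraded isoform cannot be read from them. The part of the decay factors in these differences was not tested.

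**Figure D5:**
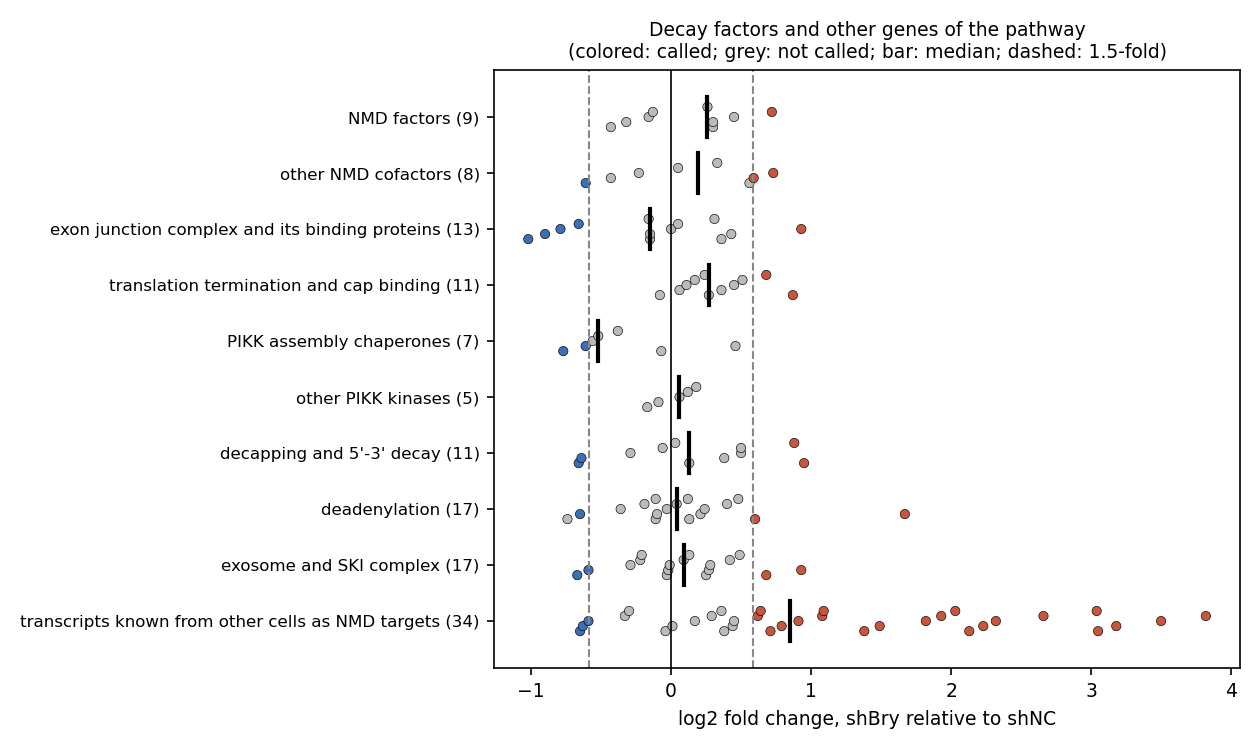
Log2 fold change of the tested genes of each list, shBry relative to shNC, with called genes in color and the list median as a bar. The decay factors lie between -0.43 and 0.72, while the reported targets reach 3.82.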

How the data were processed

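Per the labels, RNA of 3 shBry and 3 shNC libraries of MDA-MB-231 cells was sequenced. The authors deposited 1 count per gene symbol and library, as whole numbers that were not normalized. The submitters' processing notes list HISAT2 2.0.4, HTSeq and GRCh38, and the annotation and strand setting are not given in the sources used here. The deposited design text calls the RNA pericardial, whereas the labels name breast cancer cells. Library totals are given in the report.

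These counts were filtered (edgeR's filterByExpr, minimum count 10), scaled with TMM and tested across all genes with the quasi-likelihood test of edgeR 4.0.16 (R 4.3.3), with Benjamini-Hochberg adjustment and no covariate. For RNA-Sequence, the study states a p and a fold change limit of 1.5 but names no test. CPM are TMM-normalized. The standard error is the log2 fold change divided by the square root of F. Log2 ratios used counts plus 0.5 and a two-sided exact permutation test. GENCODE 29 was matched by symbol. For the GC content and length trend, each library's deviations of log2 CPM from the gene's mean over all libraries were fitted on both. Splines had 5 degrees of freedom, and the fitted values served as offsets for the 13591 tested genes (89% of 15277) that had values. Such offsets take out trends between shBry and shNC, which may be part of the difference itself, and so shift the log2 fold changes. They also take out trends between the libraries of a group, which can lower the p-values. In counts simulated from these libraries (15277 genes), the test found, at an adjusted p below 0.05, 38 of 67 genes changed 1.5-fold. It found 49 of 67 changed 2-fold, 64 of 66 changed 4-fold and 13 unchanged genes. Far fewer genes were changed there than the 53.3% of tested genes with an adjusted p below 0.05 in the data. The adjustment depends on the share changed, so these rates cannot be carried over to the comparison.

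Named genes were all 9 factors, the SMG1 pseudogenes, and in each list the 3 largest rises and falls of called genes averaging 5 CPM or more. The members and lists were chosen with earlier results of these data known. Alternatives were no TMM, DESeq2 1.42.0, limma-voom (limma 3.58.1), other filters, fold limits of 2 or none, unadjusted p, a replicate block and each library left out. The GC content and length correction, the fit without both libraries that stood apart, the sum of SMG1 with its pseudogenes and the alternatives for the count of factors by adjusted p were added after seeing the data. ChIP-seq data were not used here. Of the genes examined, 1 is not reported here.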

Additional observations from a re-analysis of the deposited data

How the results depend on the processing

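Of the 9 decay factors, 1 was called in the main analysis, against 0 with the GC content and length trend removed, 0 at a fold limit of 2 and 7 with no fold limit. Over all genes, 4945 (32.4%) were called, against 2297 at a fold limit of 2 and 8139 with none. Of the 123 genes in the other lists, 47 were called, against 18 and 78. The list of reported targets held 24 of the 47. With the GC content and length trend removed, 40 of the 123 and 4816 of all genes were called. The 7 decay factors with an adjusted p below 0.05 were 3 to 6 with each library left out, lowest without the first shBry library (3) and without the second shNC library (3), and 4 without the third shNC library. With the replicate block, 1 decay factor and 4914 genes were called and 7 decay factors had an adjusted p below 0.05. Libraries of equal number had correlations of deviations of 0.183, -0.084 and -0.028, and the other pairs had -0.22 to 0.227. These values do not settle whether libraries of equal number were paired. No decay factor changed direction under any alternative run. Of their 127 comparisons with the main value, 16 lost significance, each with a library left out. The 127 include those of SMG6 and SMG8, which had no significance to lose. Of the 6 fits with a library left out, UPF1, UPF2, SMG1 and SMG9 kept an adjusted p below 0.05 in 3 and UPF3A in 2. UPF3B and SMG5 kept it in all 6. The median log2 fold change over all tested genes was 0.03 with TMM, 0.02 without and 0.01 with DESeq2. UPF3B, the rarest of the 9, had 157 to 287 counts in a library, so counting error weighs most on it.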

Other observations

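The exon junction complex and the proteins that bind it, through which the pathway recognizes introns, had 1 gene called higher and 4 lower of 13 tested, with a median log2 fold change of -0.15. That is 38.5% called, beside 32.4% of all tested genes (17.1% higher and 15.2% lower). RNPS1, a peripheral component, fell from 275 ± 10.4 to 159.5 ± 6.28 CPM (SD, n = 3; log2 fold change -0.79, adjusted p = 1.2e-06). PYM1, which removes the complex during translation, fell by 1.02, and the export adaptor ALYREF fell by 0.90 on the log2 scale (adjusted p = 2.1e-05 and 8.7e-06). ACIN1 (-0.66) was the fourth, named after its values were seen. MAGOHB, a paralog of the core subunit MAGOH, rose by 0.93 (adjusted p = 5.7e-05), while the core subunits EIF4A3 (-0.16, adjusted p = 0.18) and RBM8A (-0.15, adjusted p = 0.24) did not pass the test. DDX39B was listed at 0 counts in every library, and whether the counting missed its reads was not tested.

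Of 7 chaperones and cofactors that assemble kinases of the SMG1 family, 0 were called higher and 2 lower (TTI1, -0.77, adjusted p = 4.3e-06, and TELO2, -0.61, adjusted p = 0.00015), with a median of -0.52. The share called was 28.6%, beside 32.4% of all genes, and 2 called genes became 5 without the third shNC library, 3 without the first shBry library and 1 without the second, where TELO2 was at -0.55. TELO2 also lost its call with the GC content and length trend removed (-0.44). The other kinases of the family, ATM, ATR, PRKDC, MTOR and TRRAP, had log2 fold changes of -0.17 to 0.18, and 0 of 5 were called or had an adjusted p below 0.05. Among 11 genes of translation termination and cap binding, 2 (18.2%) were called higher and 0 lower, beside 17.1% and 15.2% of all genes, namely ETF1, the release factor that reads stop codons (0.68, adjusted p = 1.7e-05), and GSPT2 (0.87), whose mean level was 2.84 CPM and which was named after its value was seen.

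The enzymes that complete the degradation had called genes in both directions, as had all tested genes (17.1% higher and 15.2% lower). The shares called were 36.4% in decapping, 17.6% in deadenylation and 23.5% in the exosome and SKI complex, beside 32.4%. In decapping, 2 of 11 were called higher, DCP1A (0.95) and the decapping enzyme DCP2 (0.88), and 2 lower, EDC4 (-0.66) and DCPS (-0.64). In deadenylation, 2 of 17 were called higher, BTG1 (1.67) and BTG2 (0.60), and 1 lower, CNOT6 (-0.65). Without the first shBry library 1 of these calls was left, with BTG2 at 0.56 and CNOT6 at -0.57, and BTG2 was also under the limit without the first or the third shNC library, without TMM and with DESeq2 (0.58 each). In the exosome and the SKI complex, 2 of 17 were called higher, EXOSC8 (0.93) and the nuclease DIS3 (0.68), and 2 lower, WDR61 (-0.67) and DIS3L2 (-0.59), with SKIV2L listed at 0 counts, where missed reads were likewise not tested. These 4 calls were 2 without the second shBry library (DIS3 0.52, WDR61 -0.57) and 2 without the first shNC library (DIS3 0.48, DIS3L2 -0.55). Without the second shBry library DCPS was at -0.58, just under the limit, and DIS3L2 was at -0.57 without the first shBry library. EDC4, DIS3 and DIS3L2 lost their calls with the GC content and length trend removed (-0.53, 0.52 and -0.51).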
